A study of Mus musculus with 6 samples.

Results

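The 10 genes described here encode transcription factors that specify the neural crest and keep its cells in that state: Sox10, Foxd3, Tfap2a, Tfap2b, Snai1, Snai2, Sox9, Twist1, Pax3 and Msx1. They were chosen by name and role, by a rule that uses no measured value, but with earlier results of these data known. Every probe set annotated to exactly 1 of these symbols was taken. A transcript is read on the array by 1 or more probe sets, each made of several short DNA probes whose readings are combined into a signal. This gave 21 probe sets of 10 genes, out of 45037 probe sets and 18193 named genes.

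The neural crest arises at the border between the neural plate and the surface ectoderm. Signals there switch on border genes such as Pax3 and Msx1, which with Tfap2a turn on the specifiers Foxd3, Snai1, Snai2 and Sox9. Cells that leave the neural folds go on to express Sox10, and cranial crest cells that settle in the facial primordia express Twist1 and Tfap2b. Most of these factors act at more than 1 step, so their division into border, specifier and migratory genes is a working order. Several also mark other tissues of the embryo, for instance Twist1 and Snai1 in mesoderm, Pax3 in the dorsal neural tube and young somites, and Tfap2a in surface ectoderm.

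Total RNA came from 6 whole mouse embryos of embryonic day 8.5, when cranial crest cells are leaving the neural folds. Of these, 3 were wild type and 3 were Tcof1+/- littermates, heterozygous for the gene of treacle, which acts in the nucleolus in making ribosomal RNA and whose human counterpart is mutated in Treacher Collins syndrome. Each embryo had its own Affymetrix mouse genome array. The sources used here name neither the strain nor how the Tcof1 allele was made, and embryos were not dissected, so the crest is a small part of each sample.

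The deposited signals are linear, in arbitrary units, with array medians of 21.0 to 25.6. Control probe sets for bacterial transcripts (dap, lys, phe, thr and trp) reached at most 8.55 to 13.5 per array, and that maximum was taken as background. The brightest Tcof1 probe set was at 179 to 231 in heterozygotes and 382 to 393 in wild types. Lists of markers for neural tube, paraxial mesoderm, surface ectoderm, yolk sac endoderm and primitive erythroid cells held 0 genes at or below background on all arrays. Xist, transcribed from the inactive X chromosome, was at 1520 to 2358 in wild types 1 and 2 and heterozygote 1 and at 25.1 to 33.6 in the other 3 embryos. Arrays were scanned on 2 days, embryos 1 and 2 of each genotype on the first and embryo 3 of each on the second. Heterozygotes were on other fluidics modules (numbers 2 and 4) than wild types (1 and 3), so module and genotype cannot be told apart.

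None of the 10 factors was called different between genotypes by the test used, although the signal was on average lower in heterozygotes for all of them on the brightest probe set. The largest differences were those of Sox10 (-0.71 on the log2 scale), Tfap2b (-0.66), Tfap2a (-0.57) and Foxd3 (-0.53). Msx1 (-0.03), Snai2 (-0.05) and Twist1 (-0.07) lay close to 0, and Sox9 (-0.15), Pax3 (-0.18) and Snai1 (-0.19) between. These are differences, heterozygote minus wild type, of log2(signal + 1.87), a scale that understates the change of dim genes. The median over the 10 genes was -0.19, where the median over 12857 named genes tested was -0.01 and 52.7% of those were negative.

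The test was limma's moderated fit with Benjamini-Hochberg adjustment over all 27022 probe sets bright enough to be tested, called at 0.05. Of the 21 probe sets 19 were tested and 0 were called (limma adjusted p from 0.582 to 0.980), against 0.0814% of all tested probe sets called and 0.00370% called lower. The 2 left out as too dim were the dimmest of Sox9, at or below background on 6 of 6 arrays, and the dimmest of Sox10, at or below it on 4. The 1 probe set called lower on the array was the brightest of Tcof1, the mutated gene (log2 -0.88, limma adjusted p = 0.0352). Its 2 dimmer probe sets differed by -0.70 and -0.61 without overlap between genotypes and were not called (limma adjusted p = 0.385 and 0.582). A lack of calls therefore does not show that the crest factors were unchanged. At an unadjusted p under 0.05, 5 of the 19 were lower and 0 higher, where 3.21% of all tested probe sets were lower, 3.01% higher and 6.22% one or the other. These 5 belonged to Tfap2b (both probe sets), Pax3, Tfap2a and Sox10. The genotypes did not overlap, with heterozygotes lower, on 3 of the 19, where 6.18% of all tested probe sets did so: both of Tfap2b and 1 of Pax3.

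**Figure D1:**
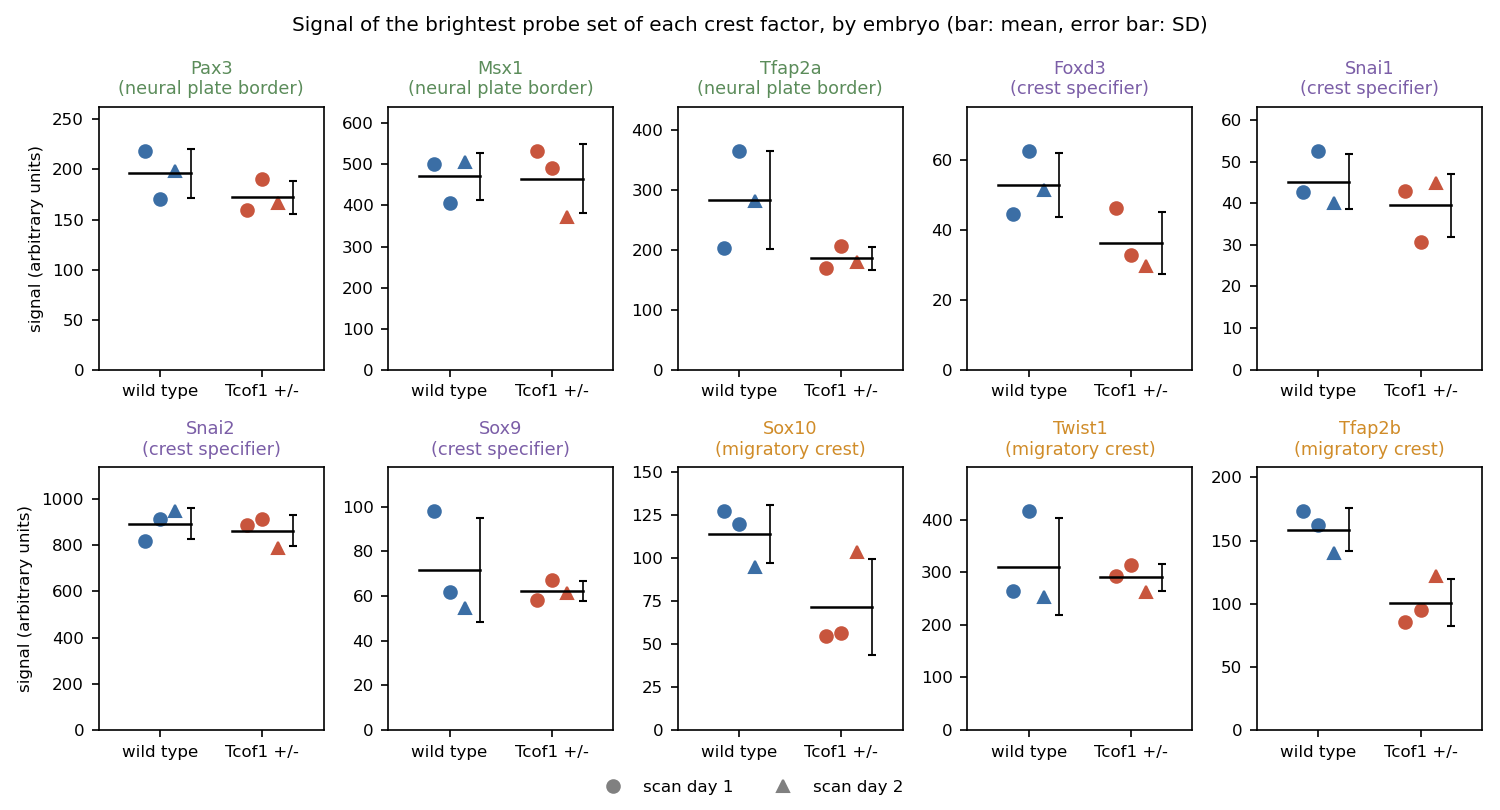
Signal in arbitrary units on the brightest probe set of each factor, 1 point per embryo, with blue for wild type, red for Tcof1 heterozygotes, circles for the first scan day and triangles for the second; bars are means and error bars SD (n = 3). Tfap2b is the panel in which the genotypes do not overlap, and in Sox10 heterozygote 3, at 104, lies among the wild types.

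**Figure D2:**
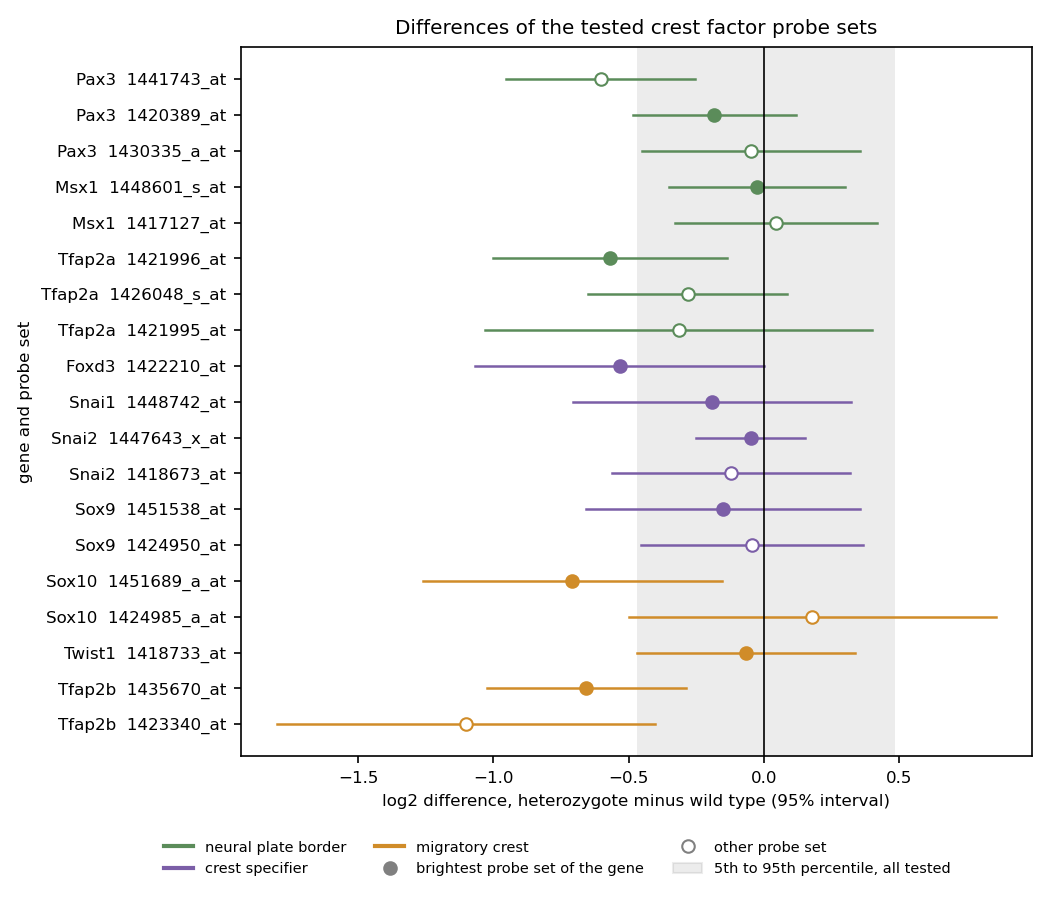
Log2 difference (heterozygote minus wild type) with its 95% interval for each of the 19 tested probe sets, coloured by role, with filled points for the brightest probe set of a gene. The grey band spans the 5th to 95th percentile of all tested probe sets, -0.47 to 0.48, and the points to its left are those of Tfap2b (2 probe sets), Sox10, Pax3, Tfap2a and Foxd3 (1 each).

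Among the border genes, the 3 probe sets of Tfap2a, which encodes the transcription factor AP-2 alpha, all had a lower mean in heterozygotes. On the brightest the signal was 202, 365 and 281 in wild types 1, 2 and 3 and 169, 207 and 180 in the heterozygotes. The genotypes overlapped by a narrow margin, since heterozygote 2 lay just above wild type 1, and wild type 2 stood well above the rest. The means were 283 ± 81.1 and 185 ± 19.3 (SD, n = 3), and the log2 difference was -0.57 with a 95% interval from -1.001 to -0.14 (limma adjusted p = 0.730). Without wild type 2 the difference was -0.37. The other probe sets, in order of signal, differed by -0.28 and -0.32, and both intervals included 0.

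Pax3 encodes a paired-domain factor of the dorsal neural tube, the crest and somites, and its 3 probe sets did not give the same picture. On the one with the largest difference, the second brightest, the signal was 210, 219 and 193 in wild types and 141, 109 and 162 in heterozygotes. All heterozygotes lay below all wild types there, with a log2 difference of -0.60 (interval -0.95 to -0.25, limma adjusted p = 0.584). On the brightest, which stands for the gene, the wild types were at 219, 171 and 199 and the heterozygotes at 159, 191 and 166, so that the groups overlapped and the difference was -0.18 (interval -0.49 to 0.12). It was -0.10 without wild type 1 and -0.28 without wild type 2. The dimmest differed by -0.05. Across the 6 embryos the second brightest had a Pearson correlation of 0.26 with the brightest and of 0.06 with the dimmest.

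Msx1, a homeobox gene that responds to BMP signals at the border, was at 405 to 507 in wild types and 372 to 533 in heterozygotes on its brightest probe set. The groups overlapped throughout, and the difference was -0.03 with an interval from -0.35 to 0.30. Its other probe set differed by 0.05, so Msx1 had no settled direction.

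Among the specifiers, Foxd3 had the largest difference. It encodes a forkhead factor that keeps crest progenitors multipotent. The signal was 44.7, 62.7 and 51.5 in wild types and 46.3, 32.9 and 29.7 in heterozygotes, on its single probe set. Heterozygotes 2 and 3 were below every wild type, while heterozygote 1 lay above wild type 1. The means were 53.0 ± 9.09 and 36.3 ± 8.83 (SD, n = 3), and heterozygotes differed by -0.53 (SE 0.24, limma adjusted p = 0.793).

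Snai1 and Snai2 encode zinc finger repressors that drive the change from epithelium to migrating cells. Snai1, on 1 probe set, was at 40.1 to 52.6 in wild types and 30.8 to 44.9 in heterozygotes, a difference of -0.19 (interval -0.71 to 0.32). Heterozygote 2 alone lay below the wild types, and without it the difference was -0.0312. It was -0.0824 without wild type 2 and -0.29 without heterozygote 3. Snai2 was at 817 to 947 and 789 to 913 on the brighter of its probe sets, with the narrowest interval of the set, -0.25 to 0.15 around -0.05. That probe set carries the array's x mark, for probes that may bind other transcripts, and the annotation gives it no accession. The other Snai2 probe set was at 85.5 to 126 and 84.7 to 120 and differed by -0.12 (interval -0.56 to 0.32), and the 2 probe sets had a correlation of 0.82 over the 6 embryos.

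Sox9, an SRY-related factor for crest survival and later for cartilage, was at 54.7 to 98.0 in wild types and 58.1 to 67.3 in heterozygotes on its brightest probe set. Wild type 1 was the highest embryo, wild type 2 lay among the heterozygotes and wild type 3 below them. The difference was -0.15, and 0.09 without wild type 1. The second tested probe set differed by -0.04.

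RefSeq promoter entries of build GRCm38.p6 matched 6 of the 10 genes, with 7 start sites. Those of Foxd3 and Snai1 are shown, because they are the specifiers that have an entry. Each is the 250 bases before the start, on the gene's strand, with 2 motifs in capitals where present: the AP-2 motif GCCNNNGGC, bound by the Tfap2a and Tfap2b proteins, and the E-box CAGGTG or its reverse complement CACCTG, bound by the Snail proteins.
Foxd3 (chr4:99656049-99656298, plus strand): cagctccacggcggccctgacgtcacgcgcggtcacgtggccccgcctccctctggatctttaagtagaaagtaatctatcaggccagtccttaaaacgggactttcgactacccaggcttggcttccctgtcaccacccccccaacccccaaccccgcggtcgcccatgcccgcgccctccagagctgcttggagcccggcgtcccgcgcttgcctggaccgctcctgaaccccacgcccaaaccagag
Snai1 (chr2:167537945-167538194, plus strand): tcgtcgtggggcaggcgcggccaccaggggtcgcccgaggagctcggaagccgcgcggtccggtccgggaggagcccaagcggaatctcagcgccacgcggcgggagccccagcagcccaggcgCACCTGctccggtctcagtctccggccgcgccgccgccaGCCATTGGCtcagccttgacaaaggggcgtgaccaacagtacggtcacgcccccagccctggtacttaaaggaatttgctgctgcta
The Snai1 window held 1 AP-2 match, beginning 87 bases before the start, and 1 E-box, beginning 126 bases before it. The Foxd3 window held 0 of either. Over the 7 windows 1 held the AP-2 motif and 2 the E-box (Snai1 and Msx1), where 13.7% and 17.2% of all 32851 RefSeq promoter windows did. The starts of the Tfap2b window and of both Tfap2a windows lie 3146, 3318 and 4443 bases inside the gene, not at its edge. The motif ACAATG (reverse complement CATTGT), bound by SOX proteins, was in 0 of the 7 and in 10.7% of all. A match is a description of the letters and was not set against any signal here.

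Among the migratory genes, Tfap2b, which encodes AP-2 beta, gave the smallest p of the 19 probe sets. On the brighter of its probe sets the signal was 173, 162 and 141 in wild types and 85.3, 95.4 and 122 in heterozygotes. On the dimmer it was 69.7, 82.7 and 68.6 in wild types and 21.2, 29.9 and 56.9 in heterozygotes. All 3 heterozygotes were below all 3 wild types on both, and heterozygote 3 came nearest to them on both. The log2 differences were -0.66 (interval -1.02 to -0.29, limma adjusted p = 0.582) and -1.10 (interval -1.80 to -0.40, adjusted p = 0.650). The probe sets measure the same RNA on the same arrays, with a correlation of 0.95 over the 6 embryos, and so are not independent evidence.

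Sox10 encodes the SRY-related factor of migrating crest and of the glia and pigment cells that come from it. On its brightest probe set wild types were at 128, 120 and 94.8 and heterozygotes at 54.7, 56.7 and 104. Heterozygotes 1 and 2 had about the same low signal, whereas heterozygote 3 lay above wild type 3. The difference was -0.71 with an interval from -1.26 to -0.16 (limma adjusted p = 0.740), and -1.0003 without heterozygote 3. It was -0.55 without heterozygote 1 and -0.57 without heterozygote 2. Without wild types 1, 2 or 3 it was -0.62, -0.67 and -0.83.

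The other tested probe set of Sox10 did not show this pattern. There wild types were at 29.9, 46.0 and 42.6 and heterozygotes at 59.96, 28.0 and 51.3, a difference of 0.18 (interval -0.50 to 0.86). Heterozygote 1 was the lowest embryo on one probe set and the highest on the other, and the correlation between them over the 6 embryos was -0.10. With the mean of both in place of the brightest, the Sox10 difference was -0.26. The sources used here do not place either probe set within the transcript.

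Twist1, a basic helix-loop-helix gene of cranial crest and mesoderm, was at 252 to 416 in wild types and 262 to 315 in heterozygotes. Wild type 2 was the highest embryo and the groups overlapped, with a difference of -0.07 (interval -0.47 to 0.34). Without wild type 2 it was 0.16, so Twist1 had no settled direction.

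**Figure D3:**
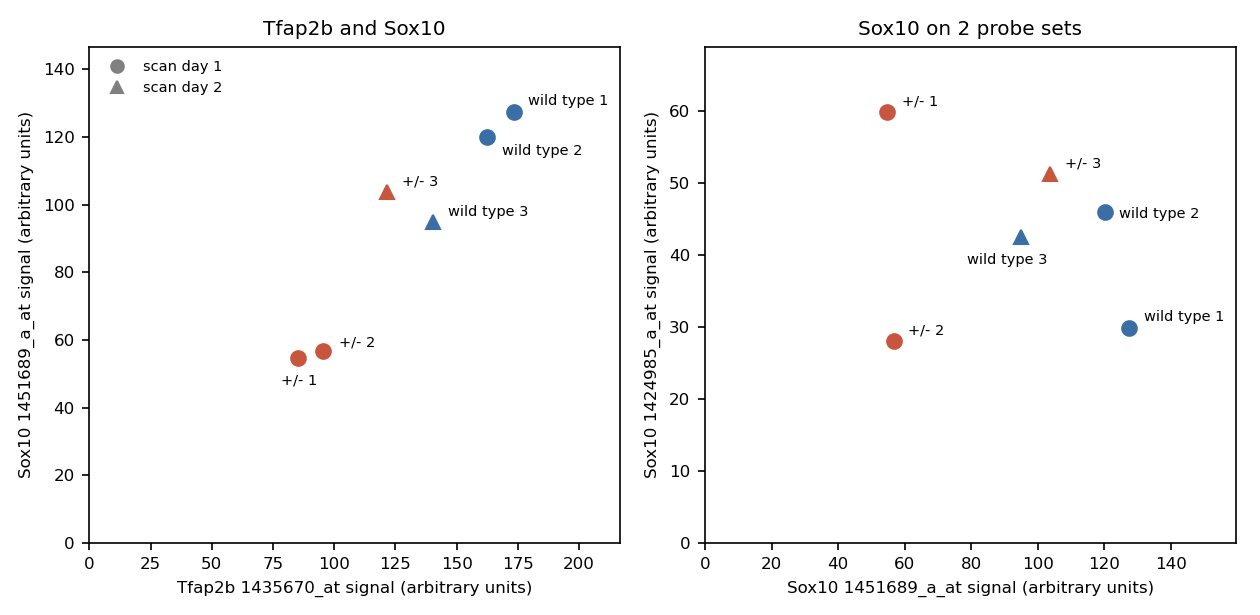
Signals in arbitrary units of the 6 embryos (blue wild type, red heterozygotes; circles and triangles are the first and second scan day). On the left the brightest probe set of Sox10 is plotted against that of Tfap2b, and heterozygotes 1 and 2 lie apart at the lower left while heterozygote 3 is beside wild type 3; on the right the 2 tested probe sets of Sox10 show no common order (r = -0.10).

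The brightest probe sets of Sox10 and Tfap2b had a Pearson correlation of 0.96 on the log2 scale over the 6 embryos, the highest of the 45 pairs among the 10 factors. Tfap2a and Foxd3 followed at 0.74, and Snai2 with Sox9 was the lowest pair at -0.51. All values of an embryo share 1 array and 1 RNA sample, and 6 points leave such values imprecise. The mean standardised profile of the 10 factors was most like Mical1 (r = 0.99), Dpy19l3 (0.99) and Dusp2 (0.99) among 12847 other named genes. A correlation above 0.9 was reached by 140 of those genes.

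The heterozygous embryos differed in which factors were low. Relative to the wild-type mean, 9, 7 and 9 of the 10 factors were lower in heterozygotes 1, 2 and 3, and the median deviation was -0.21, -0.22 and -0.22. Over the 3 migratory genes that median was -0.88, -0.72 and -0.21, and over the 3 border genes -0.29, -0.03 and -0.33. A median of 3 genes is the value of 1 gene: for the migratory genes Tfap2b in heterozygotes 1 and 2, and Twist1 in heterozygote 3. Twist1 deviated by only -0.04 and 0.06 in heterozygotes 1 and 2. On the first scan day, with 2 embryos per genotype, the median difference was -0.34 over all 10 factors, -0.88 over the migratory, -0.34 over the specifier and -0.15 over the border genes. On the second, with 1 embryo per genotype, these were -0.23, 0.05, -0.05 and -0.44. The border value was that of Pax3 on the first day and of Msx1 on the second, and Msx1 differed by 0.18 on the first. Tfap2b differed by -0.88 on the first day and -0.21 on the second, Sox10 by -1.13 and 0.13, and Twist1 by -0.12 and 0.05. Tfap2a differed by -0.53 and -0.64, and Foxd3 by -0.42 and -0.76. With log2 Xist signal as a covariate Tfap2b differed by -0.68, Sox10 by -0.74, Tfap2a by -0.60 and Foxd3 by -0.43.

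Markers of the neural tube, where several of these factors are also expressed, were lower on average as well. That list, like the others, was chosen with earlier results of these data known. All 10 genes of the neural tube list were tested and 10 had a lower mean in heterozygotes, with a median difference of -0.46. Of these 0 were called by limma, against 0.00370% of all tested probe sets called lower, a share made up of the 1 called probe set of Tcof1. At an unadjusted p under 0.05, 8 of the 10 were lower, against 3.21%, and 7 were lower without overlap between genotypes, against 6.18%. Their summed signal was 2996 to 3240 in wild types and 2086 to 2667 in heterozygotes. For paraxial mesoderm, 8 of 9 tested genes were negative (median -0.33), and the summed signals of all 10 were 2498 to 3217 and 2313 to 2509. For surface ectoderm, 2 of 10 were negative (median 0.13), with sums of 7279 to 7932 and 7211 to 9293. The part of these tissues in the differences of the crest factors was not tested. In RNA from whole embryos, fewer cells of a type and less RNA per cell cannot be told apart.

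Blood and yolk sac genes varied widely between embryos of both genotypes. The summed signal of 6 erythroid genes was 5788 to 13641 in wild types and 306 in heterozygote 1, 7416 in heterozygote 2 and 11211 in heterozygote 3. For 8 yolk sac genes it was 1919 to 9926 in wild types and 858 to 15701 in heterozygotes. The 3 prime to 5 prime log2 ratio of Gapdh, which grows as RNA is degraded or copied short, was 0.84 to 1.04 in wild types and 0.68 to 0.81 in heterozygotes, without overlap, and that of beta-actin was 0.74 to 0.84 and 0.68 to 0.81. The part of these measures in the differences was not tested.

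A wider list of 49 other crest genes, ordered by role, was read from the same fit to set the 10 factors in their pathway. It matched 44 genes on the array, 41 of them tested on their brightest probe set. None was called by limma, against 0.0814% of all tested probe sets. At an unadjusted p under 0.05, 3 were lower and 2 higher, against 3.21% and 3.01% of all tested probe sets. Of the 41, 26 were negative and 15 positive, where 52.7% of named genes tested were negative. Their median was -0.06. The groups did not overlap in 11 of the 41, lower in 7 and higher in 4, against 12.2% of all tested probe sets.

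Partners at the neural plate border had 8 of 9 negative differences and a median of -0.17. The zinc finger gene Zic2 was at 92.3, 95.5 and 114 in wild types and 86.0, 65.5 and 68.5 in heterozygotes, without overlap (log2 -0.45, limma adjusted p = 0.774). Msx2, the paralogue of Msx1, was at 182 to 206 and 156 to 174, also without overlap (-0.25, adjusted p = 0.799), and its dimmer probe set differed by -0.49. Whether Msx1 and Msx2 differed from each other in their response was not tested.

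Partners of the specifiers had 6 of 9 negative, with a median of -0.04. Id2, an inhibitor of basic helix-loop-helix factors, was at 1454, 1545 and 1365 in wild types and 1695, 1889 and 1847 in heterozygotes. All heterozygotes were higher (0.32, limma adjusted p = 0.483), while its other probe sets differed by 0.12 and -0.15. Id3 was at 1306 to 1471 and 1219 to 1279 (-0.15, adjusted p = 0.807).

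Other migratory crest regulators had 4 of 8 negative and a median of 0.04. On the brightest probe set the nuclear receptor genes Nr2f1 and Nr2f2 had the smallest p of these. Their differences were -0.43 and -0.31 (limma adjusted p = 0.810 and 0.846), with overlapping groups. The dimmer tested probe sets of Nr2f2 differed by -0.35, -0.15, -0.38 and 0.35. A dimmer probe set of Prrx1 was higher in heterozygotes without overlap (0.66, limma adjusted p = 0.700), while its brightest differed by -0.0013. The remaining tested ones of Prrx1 differed by -0.34, 0.61 and -0.06.

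Receptor, adhesion and matrix genes had 8 of 15 negative and a median of -0.04. Crabp1, a retinoic acid binding protein gene of crest and hindbrain, was at 2484, 2313 and 2270 in wild types and 1651, 1723 and 1800 in heterozygotes, a difference of -0.45 (limma adjusted p = 0.0662). It was called with quantile normalization (-0.47, adjusted p = 0.0427). Nrp1, a receptor for semaphorins and VEGF, was at 777, 644 and 812 in wild types and 954, 1016 and 1006 in heterozygotes (0.42, adjusted p = 0.457). Its 3 dimmer probe sets differed by 0.07 to 0.17.

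**Figure D4:**
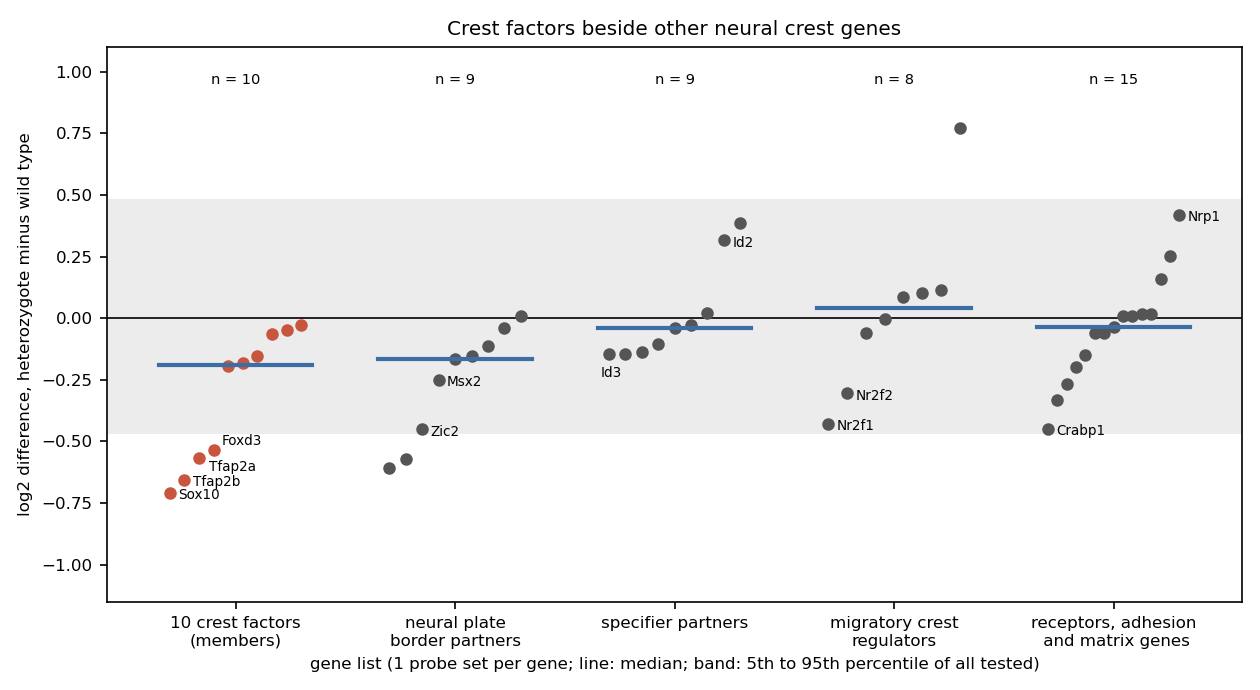
Log2 difference (heterozygote minus wild type), 1 brightest tested probe set per gene, for the 10 factors (red) and 41 other crest genes by role (grey); blue lines are medians and the band spans the 5th to 95th percentile of all tested probe sets. The medians are -0.19 for the factors and -0.17, -0.04, 0.04 and -0.04 for the other lists from left to right.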

How the data were processed

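Per the labels' protocols, 100 ng of total RNA per embryo was amplified and biotin-labelled in the Affymetrix two-cycle protocol. The values the authors deposited are intensities on a linear scale. GCOS is named as their source by the submitters' processing notes, without a version or algorithm. Each array had a 2% trimmed mean of 150, found from the values, and this scaling was kept. Instrument records (other values, per the file headers) gave scan day and fluidics module.

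The 64 Affymetrix controls were left out, as were 40% of the others, those of lowest mean log2(signal + 1.87), below a signal of about 13.2. The constant is the 10th percentile of all signals. Genotype was the sole term in limma 3.58.1 (R 4.3.3), two-sided, with an intensity trend. The fit was run on simulated data whose planted differences were larger than any of the crest factors. It does not show whether differences of their size would be called. A gene stands for its probe set with the highest mean, and other probe sets are given beside it. Of 45037 probe sets, 34945 had 1 symbol in the platform annotation. Of other crest genes, the 2 with the smallest p in each list on the brightest probe set were named, and Prrx1 for a dimmer one. Members and lists were chosen with earlier results of these data known. Figures were drawn with matplotlib 3.10.9. Alternatives were another pseudocount, normalization, filter, variance prior or probe set per gene, array weights, blocks, an Xist covariate and leaving out arrays.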

Additional observations from a re-analysis of the deposited data

How the results depend on the processing

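The number of crest factor probe sets called stayed at 0 in all 18 alternatives that were fitted, with the smallest limma adjusted p among them between 0.146 and 0.906. The median difference of the 10 genes ranged from -0.34 to -0.17 over 20 alternatives and moved by more than the spread between embryos (0.11) on the first scan day alone, where it was -0.34; leaving out 1 array gave -0.29 to -0.19. Pax3, Tfap2a, Foxd3, Snai1, Sox10 and Tfap2b kept a negative sign in all 20. The filters, the variance prior and the blocks cannot change a difference here, so they are no check on its sign. For these genes the probe set without an x or s mark was also the brightest one. No alternative read Sox10 on its other tested probe set alone, where the difference was 0.18. Msx1 turned positive on the first scan day alone (0.18), with the Xist covariate (0.00135), with the mean of its probe sets (0.0101), on the probe set without an s mark (0.0458, an alternative chosen after seeing the data), and without wild type 1 (0.02), wild type 3 (0.03) or heterozygote 3 (0.13), with a range from -0.13 when 1 array was left out. Snai2 did so on the first scan day alone (0.0572) and without heterozygote 3 (0.0135), Twist1 with the Xist covariate (0.00737) and without wild type 2 (0.16) or heterozygote 3 (0.00581; lowest -0.20 with 1 array left out), and Sox9 without wild type 1 (0.0928; lowest -0.32). Calls over all probe sets, 22 in the report's fit, were 0 without the intensity trend, 10 with the replicate block, 14 with scan day as a block, 12 on the first scan day alone, 9 with the Xist covariate and 8 to 20 with 1 array left out. Calls among the other crest genes were 1 (Crabp1) with quantile normalization and 0 otherwise. Same-numbered embryos did not deviate together (r = -0.08, -0.11 and -0.02). With 3 embryos per genotype these correlations cannot exclude a pairing, and same-numbered embryos shared a scan day. With the replicate block 0 crest factor probe sets were called (smallest limma adjusted p = 0.906). In every one of these cases the cause was not tested. Having 3 arrays a genotype limits the precision.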
